A study of Populus alba x Populus glandulosa with 9 samples.

Results

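The genes described here are those that peaked in the middle internodes of the stem of 84K poplar. They were chosen on FPKM, the authors' read counts scaled to gene length and library total. The lowest of the 3 middle libraries had to reach 2 FPKM and at least 1.5 times the highest of the 6 top and bottom libraries. Of 85755 gene identifiers, 17 met this rule. The same rule with the top as the peak position was met by 1485 genes, and with the bottom as the peak by 14 genes.

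The 9 RNA-seq libraries were made from whole stem pieces of wild-type 84K poplar, a Populus alba x Populus glandulosa hybrid, aged 6 months and about 200 cm tall. Top libraries came from internodes 2 to 3, middle libraries from internodes 9 to 10 and bottom libraries from internodes 14 to 15, with 3 libraries of each. No treatment or transgene is labelled in any group. Whether the 3 libraries of a position are 3 plants is not labelled, so p-values speak only of how these libraries vary, and part of that may be technical. A stem piece holds many cell types, and more RNA per cell cannot be told apart from more cells that use a gene.

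A poplar stem is a developmental series in space. Young internodes near the tip are still elongating, and their vascular tissue is in bundles. Further down, elongation has ended and a ring of dividing cells, the vascular cambium, adds wood (secondary xylem) on its inner side and phloem on its outer side. Wood cells widen, lay down thick secondary walls and, in vessels and fibres, die. The top, middle and bottom pieces sample this series at increasing distance from the tip. The deposited tables do not pair identifiers with gene names, so no function is given for any of the 17 genes, and no marker gene could be used to check the tissues. The letters A, G and Un that follow the prefix are used only as classes of identifier.

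Library totals ran from 41434042 to 75217046 counts, and middle libraries 3 and 2 were the shallowest. All counts were even, and 2 counts are taken as 1 read pair. As a check for repeated libraries, read pairs were compared between libraries of 1 position, and the chi-square divided by its degrees of freedom was 21.8 to 53.3. Middle library 2 stood apart from middle libraries 1 and 3, at 49.7 and 40.8 on this measure, while those were 24.6 apart. Top library 1 was 53.3 and 50.1 from top libraries 2 and 3, which were 32.9 apart.

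Few genes were highest in all 3 middle libraries. Of the 37084 genes with at least 2 FPKM in every middle library, 335 had every middle library above every other library. A margin midway between equal and 1.5 times was met by 56 of these, the 1.5 times of the rule by 17 and a margin of 2 times by 2. The rule asks for agreement of all 9 libraries. On position means alone, with the same floor and fold, 1247 genes peaked in the middle, against 5172 in the top and 1502 in the bottom. Since members were chosen from these values, levels in the middle against the other positions are given below as descriptions, with no test.

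**Figure D1:**
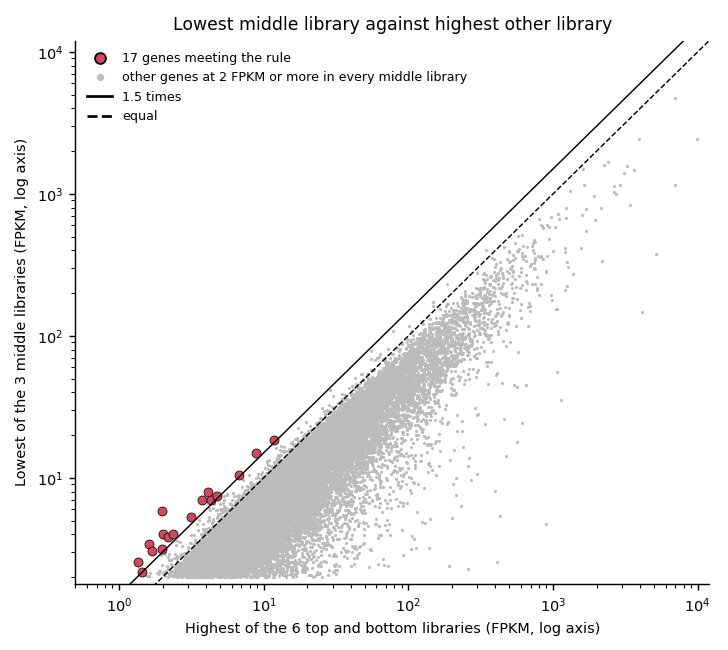
Lowest of the 3 middle libraries (vertical axis, FPKM, log scale) against the highest of the 6 top and bottom libraries (horizontal axis, FPKM, log scale) for the 37084 genes with at least 2 FPKM in every middle library. The 17 genes of the rule (red) lie on or above the solid line of 1.5 times, at up to 18.6 FPKM on the vertical axis, while nearly all other genes (grey) lie under the dashed line of equal values.

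The 17 genes were of low to moderate level. The median gene of the set averaged 1.61 FPKM over the top libraries, 7.59 FPKM over the middle libraries and 1.68 FPKM over the bottom libraries. Means of single genes ranged from 0.57 to 10.9 FPKM at the top position, from 2.55 to 27.2 FPKM at the middle and from 0.49 to 6.34 FPKM at the bottom. The middle mean was 2.33 to 18.4 times the top mean, with a median of 3.75, and 1.99 to 14.8 times the bottom mean, with a median of 5.20. Without middle library 2 these ratios were 2.13 to 11.4, with a median of 3.34, and 1.96 to 17.5, with a median of 3.87. In 10 of the 17 genes the middle mean was under 9.46 FPKM, the median over the 37084 genes at 2 FPKM or more in the middle. Every gene of the set had counts in every library: 0 of 153 entries were at 0 counts, and the lowest entry was 4 read pairs.

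**Figure D2:**
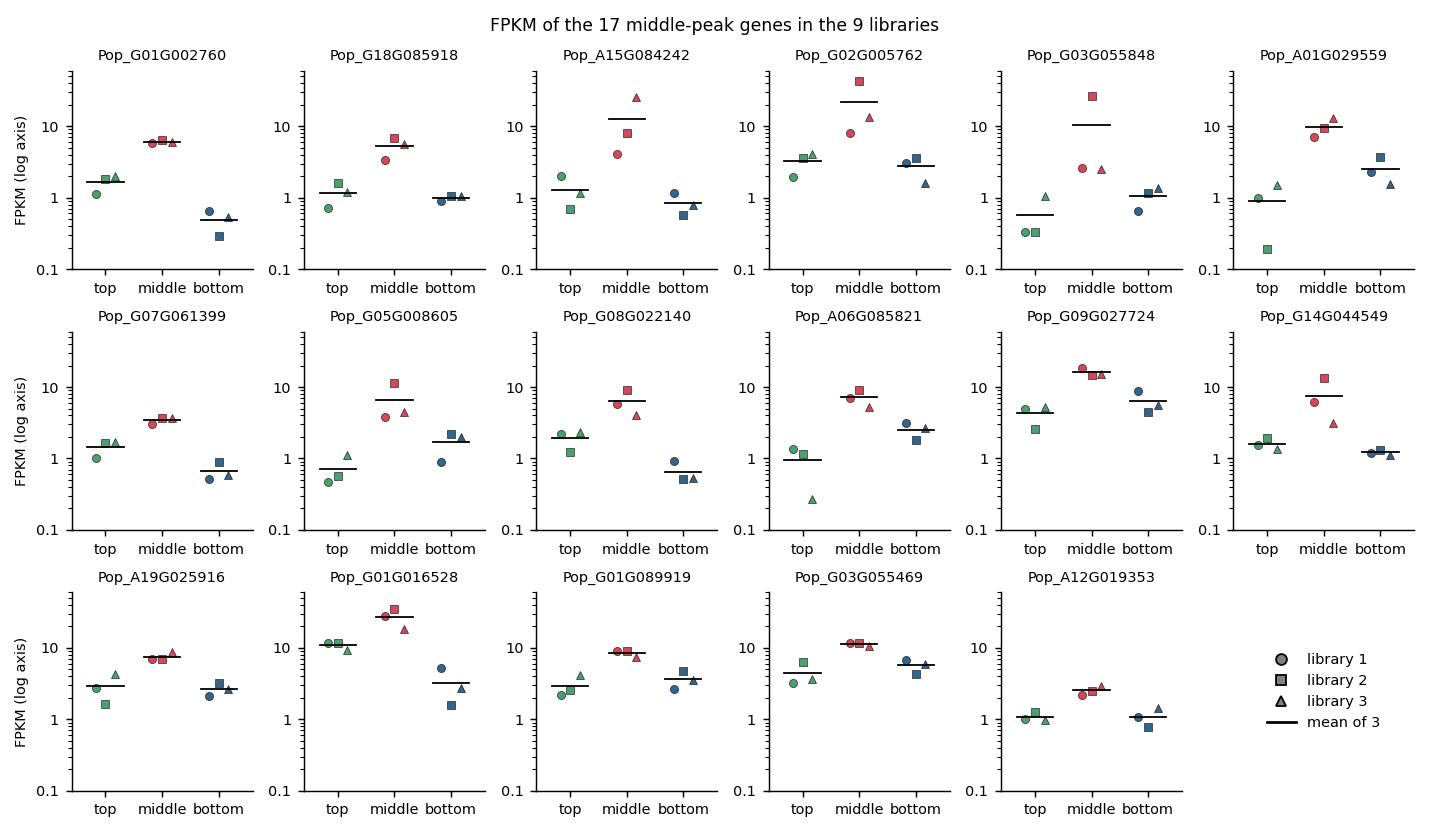
FPKM of each of the 17 genes (log axis) in the 3 top, 3 middle and 3 bottom libraries, ordered by the ratio of the lowest middle to the highest other library. Points are single libraries and lines are means of 3. The middle libraries lie above all others in every panel, which the rule fixed, while their own spread runs from 1.10-fold in Pop_G01G002760 to 10.4-fold in Pop_G03G055848.

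Pop_G01G002760 had the largest margin of the set, 2.92 times between the lowest middle and the highest other library, and the largest margin over the bottom, 9.07 times. It measured 1.13, 1.84 and 1.99 FPKM in the top libraries, 5.81, 6.38 and 6.00 FPKM in the middle and 0.64, 0.29 and 0.54 FPKM in the bottom. The middle libraries were close to each other, every bottom library lay below every top library, and the 3 positions did not overlap.

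Pop_G08G022140 had the next largest margin over the bottom, 4.39 times. Its levels were 2.17, 1.24 and 2.35 FPKM in the top, 5.86, 9.17 and 4.01 FPKM in the middle and 0.91, 0.51 and 0.54 FPKM in the bottom. Here too each position kept to its own range, with the bottom the lowest.

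The largest margins over the top were those of Pop_A01G029559 and Pop_A06G085821, at 4.72 and 3.89 times. Pop_A01G029559 measured 0.98, 0.19 and 1.48 FPKM in the top, 7.0, 9.31 and 13.2 FPKM in the middle and 2.25, 3.74 and 1.56 FPKM in the bottom. Pop_A06G085821 measured 1.38, 1.17 and 0.27 FPKM in the top, 6.93, 9.20 and 5.34 FPKM in the middle and 3.14, 1.79 and 2.67 FPKM in the bottom. In both, every bottom library lay above every top library, so the order was middle, bottom, top. Their lowest top entries, in top library 2 and top library 3, rest on 5 and 4 read pairs, the fewest of any entry of the 17 genes.

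The highest mean level of the set was in Pop_G01G016528, with 11.8, 11.6 and 9.42 FPKM in the top, 28.0, 35.0 and 18.6 FPKM in the middle and 5.29, 1.61 and 2.79 FPKM in the bottom. Its bottom libraries lay well below its top libraries. The remaining 12 genes are named because of what their values show, a choice made after the values were seen. Pop_G07G061399 had the same order at a lower level, with 1.01, 1.66 and 1.70 FPKM in the top, 3.04, 3.69 and 3.65 FPKM in the middle and 0.52, 0.90 and 0.58 FPKM in the bottom. In each of these genes the 3 positions did not overlap.

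In a further 5 genes the middle libraries were close to each other and the margin was modest. Top and bottom libraries varied more, except the top libraries of Pop_A12G019353 (highest over lowest 1.29, against 1.36 in the middle). Pop_G03G055469, the member with the most reads (7052 read pairs over the 9 libraries), measured 3.25, 6.38 and 3.64 FPKM in the top, 11.9, 11.7 and 10.5 FPKM in the middle and 6.77, 4.36 and 5.99 FPKM in the bottom. Pop_G09G027724 measured 4.95, 2.63 and 5.32 FPKM in the top, 18.5, 14.9 and 15.0 FPKM in the middle and 8.91, 4.53 and 5.57 FPKM in the bottom. Top and bottom libraries overlapped in both. Pop_G01G089919, with means of 2.98, 8.47 and 3.63 FPKM down the stem, had the same shape. Pop_A19G025916 had it too, with means of 2.92, 7.58 and 2.70 FPKM. Pop_A12G019353 was the faintest, at 1.09 ± 0.17 FPKM in the top, 2.55 ± 0.39 FPKM in the middle and 1.09 ± 0.33 FPKM in the bottom (SD, n = 3 each), and had the fewest reads, 200 read pairs in all.

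In the other 6 genes the middle libraries were more than 2-fold apart. Pop_G03G055848 measured 26.3 FPKM in middle library 2 but 2.59 and 2.54 FPKM in middle libraries 1 and 3, against 0.33, 0.33 and 1.05 FPKM in the top and 0.66, 1.17 and 1.35 FPKM in the bottom. Pop_G02G005762 had 7.93, 43.1 and 13.6 FPKM in the middle, the highest single value of the set, against 1.95, 3.60 and 4.13 FPKM in the top and 3.10, 3.62 and 1.62 FPKM in the bottom. Pop_A15G084242 was instead highest in middle library 3, with 4.03, 8.03 and 25.4 FPKM in the middle, against 2.02, 0.69 and 1.15 FPKM in the top and 1.15, 0.58 and 0.80 FPKM in the bottom. For these genes the SD of the middle libraries, 13.7, 18.9 and 11.3 FPKM, was nearly as large as or larger than the middle mean of 10.5, 21.6 and 12.5 FPKM. Pop_G14G044549, Pop_G05G008605 and Pop_G18G085918 also peaked in middle library 2, at 13.3, 11.4 and 6.94 FPKM, where their lowest middle library had 3.16, 3.81 and 3.41 FPKM.

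The rule bounded the lowest middle library from below and the highest top or bottom library from above, so all 9 libraries entered the choice. The spreads within positions come from those same values and are given as a description, with no test. Highest over lowest middle library had a median of 1.88 over the 17 genes, against 1.35 over the 37084 genes. It was at least 2-fold in 7 of the 17 (41.2%), against 11.6% of those genes, and under 1.5-fold in 7. The top and bottom libraries of the 17 genes were also more spread than usual: the medians were 2.02 against 1.35 in the top and 1.85 against 1.27 in the bottom. The 17 genes had fewer reads than the genes they are set against, with a median of 890 read pairs over all libraries against 3792.5, and the part of depth in their spread was not tested.

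Middle library 2 was the highest library in 10 of the 17 genes, middle library 3 in 4 and middle library 1 in 3. Library 2 was thus highest in 58.8% of the set, against 24.0% of the 37084 genes, of which 29.6% were highest in library 3 and 46.4% in library 1. The rule acted on the lowest middle library, which was library 2 in 2 of the 17 genes, library 1 in 8 and library 3 in 7. These shares rest on values the rule used and are a description, with no test. Summed over the 17 genes, the middle libraries held 133, 227 and 150 FPKM, against 39.6 to 45.6 in the top libraries and 35.8 to 42.2 in the bottom libraries. The rule fixed that the middle sums are the higher ones, and the sizes are given as a description.

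**Figure D3:**
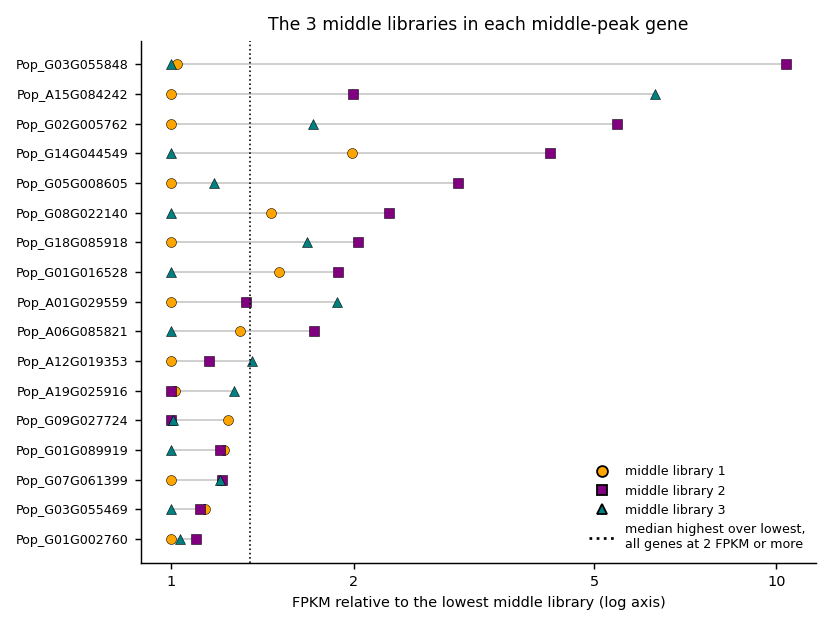
FPKM of the 3 middle libraries in each of the 17 genes, relative to the lowest of them (log axis), ordered by spread. Library 2 is the highest in 10 genes, and the dotted line marks 1.35, the median of highest over lowest middle library over the 37084 genes with at least 2 FPKM in every middle library.

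Single libraries decided how many genes met the rule. Leaving out a library can only add genes, and the 17 stayed in by construction. Without middle library 1 the rule was met by 110 genes and without middle library 3 by 109, but without middle library 2 by 26. Without top library 3 it was met by 46 genes, and without bottom library 2 or 3 by 27 or 28. The other libraries gave 19 to 24 genes. Rescaling FPKM by the TMM factors of the counts or by DESeq2 size factors kept all 17 genes and added 1.

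**Figure D4:**
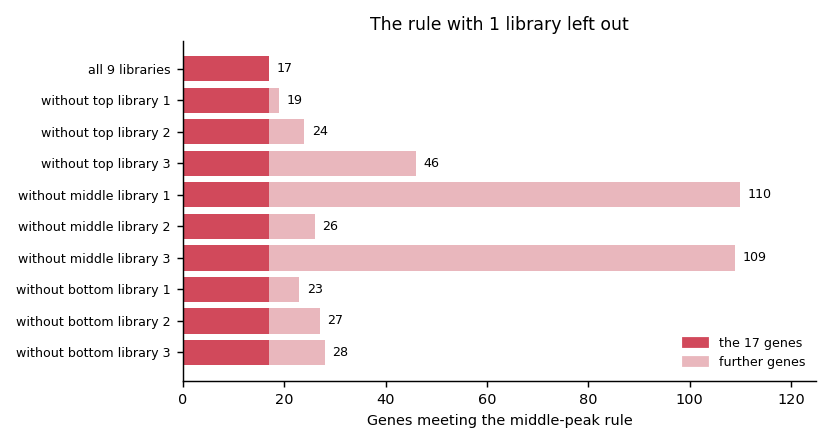
Number of genes that met the rule with all 9 libraries and with each library left out in turn. The dark part of each bar is the 17 genes and the light part the genes gained, most of them (93 and 92) without middle library 1 or 3.

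Counting error on these margins differed with the number of reads. The rule set the ratio of the lowest middle to the highest other library at 1.5 or more, so its exact 95% interval, from the read pairs of those 2 libraries, is given only to show how precisely each was counted. It ran from 1.41 to 1.71 in Pop_G03G055469, with 898 and 732 read pairs in those libraries, and from 2.25 to 3.81 in Pop_G01G002760, with 227 and 80. It was wider in Pop_G14G044549 (0.96 to 2.69, from 31 and 35 read pairs) and in Pop_A12G019353 (0.86 to 2.75, from 32 and 22). Reads without molecular identifiers are not independent molecules, so these intervals cover counting error only.

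Some genes lay not far outside the thresholds. Just inside the fold were Pop_A12G019353, Pop_G03G055469 and Pop_G01G089919 at 1.52, 1.55 and 1.56 times. Of genes that met the floor, the nearest outside the fold stood at 1.49, 1.47 and 1.45 times. The faintest members had 2.18, 2.54 and 3.04 FPKM in their lowest middle library. Of genes that met the fold, the nearest below the floor had 1.75, 1.49 and 1.44 FPKM.

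Bottom against top is the contrast whose direction the rule did not set, since it caps both ends of the stem alike. The values of both ends still entered the choice, and the fit shares its estimate of spread with the middle libraries. The p-values below are therefore not independent of the choice. The contrast asks whether a gene that peaked in the middle came back to its level at the tip. In edgeR's quasi-likelihood model of the counts, 4 of the 17 genes were lower in bottom than in top libraries and 0 were higher, at a Benjamini-Hochberg adjusted p under 0.05 over all 52436 genes tested. The 4 genes are 23.5% of the set, against 27.3% of all genes tested that were called, 15.1% lower and 12.1% higher, so the set was called about as often as genes at large. All 17 genes passed the filter on low counts, and all 17 also passed it on the top and bottom libraries alone.

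The largest fitted falls, not separable from each other within their errors, were those of Pop_G01G016528 and Pop_G01G002760. Pop_G01G016528 averaged 3.23 ± 1.88 FPKM in the bottom and 10.9 ± 1.32 FPKM in the top (SD, n = 3 each), a log2 change of -1.83 (standard error 0.41, edgeR adjusted p = 0.0119). Pop_G01G002760 averaged 0.49 ± 0.18 FPKM in the bottom and 1.65 ± 0.46 FPKM in the top (SD, n = 3 each), a log2 change of -1.83 (standard error 0.33, edgeR adjusted p = 0.00531). Both calls held when any single library was left out, but both were lost without replicate number 2 in every position (edgeR adjusted p = 0.0580 for Pop_G01G016528 and 0.0504 for Pop_G01G002760) and without number 3 (0.0987 and 0.0885). Over all alternatives the adjusted p ranged from 0.000151 to 0.0987 and from 2.65e-06 to 0.0885. Both genes peaked in the middle and were lower in the bottom than near the tip.

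The other called genes were Pop_G08G022140 and Pop_G07G061399. Pop_G08G022140 averaged 0.65 ± 0.22 FPKM in the bottom and 1.92 ± 0.60 FPKM in the top (SD, n = 3 each), a log2 change of -1.62 and an edgeR adjusted p of 0.0171. Pop_G07G061399 averaged 0.67 ± 0.21 FPKM in the bottom and 1.45 ± 0.39 FPKM in the top (SD, n = 3 each), a log2 change of -1.19 and an edgeR adjusted p of 0.0357. Pop_G08G022140 lost its call without top library 3, bottom library 2 or bottom library 3 (edgeR adjusted p = 0.0577, 0.0665 and 0.0603, with a range of 0.00109 to 0.140 over all alternatives). Its call was also lost without replicate number 1 or 3 in every position (edgeR adjusted p = 0.0589 and 0.140). The same held in limma on log2(FPKM + 1), with and without a filter (limma adjusted p = 0.0551 and 0.0760). Pop_G07G061399 lost its call without any 1 of 7 libraries, all except top library 1 and bottom library 2 (edgeR adjusted p = 0.0504 to 0.105, with a range of 0.00725 to 0.275 over all alternatives). It was not called without replicate number 1, 2 or 3 in every position either (edgeR adjusted p = 0.0857, 0.0967 and 0.275). Pop_G07G061399 also lost its call in the fit on top and bottom libraries alone (edgeR adjusted p = 0.0852). That fit called 3 of the 17 genes lower and 0 higher, against 15.4% and 11.4% of all genes.

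No gene of the set was called higher in bottom than in top libraries by edgeR, against 12.1% of all genes tested. The largest fitted rises, neither of them called, were those of Pop_A01G029559 and Pop_A06G085821. Pop_A01G029559 averaged 2.52 ± 1.12 FPKM in the bottom and 0.89 ± 0.65 FPKM in the top (SD, n = 3 each), a log2 change of 1.46 (standard error 0.64, edgeR adjusted p = 0.118). Pop_A06G085821 averaged 2.53 ± 0.68 FPKM in the bottom and 0.94 ± 0.59 FPKM in the top (SD, n = 3 each), a log2 change of 1.35 (standard error 0.54, edgeR adjusted p = 0.0964). DESeq2 and limma on log2(FPKM + 1) each called 1 gene higher, Pop_A06G085821 (adjusted p = 0.0422 in DESeq2 and 0.0444 in limma, with a range of 0.0422 to 0.260 over all alternatives). DESeq2 called 4 of the 17 lower but gave no adjusted p for Pop_G03G055848. Of all genes with an adjusted p in DESeq2, 15.2% were called lower and 13.6% higher. Limma called 3 of the 17 lower, against 12.7% of all genes lower and 14.1% higher. Without top library 2, edgeR called 1 of the 17 genes higher, against 7.94% of all genes in that fit, and it was Pop_G03G055469 (edgeR adjusted p = 0.0483, with a range of 0.0321 to 0.960 over all alternatives).

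The other 11 genes had log2 fold changes of -0.67 to 1.16, with edgeR adjusted p-values of 0.143 to 0.890. The nearest to equal was Pop_A12G019353, at -0.09 with a standard error of 0.39. The uncertainty was often large, as in Pop_G05G008605, at 1.16 with a standard error of 0.55, and in Pop_G03G055848, at 0.84 with 0.95. These errors share 1 estimate with the middle libraries. In the fit on top and bottom libraries alone they were 0.51 and 0.60, while that of Pop_A12G019353 was 0.44. Over the 17 genes the median log2 fold change was -0.17, against 0.0012 over all genes tested. Every bottom library lay below every top library in 5 of the 17 genes, against 22.0% of all genes tested, and above in 2, against 24.9%.

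**Figure D5:**
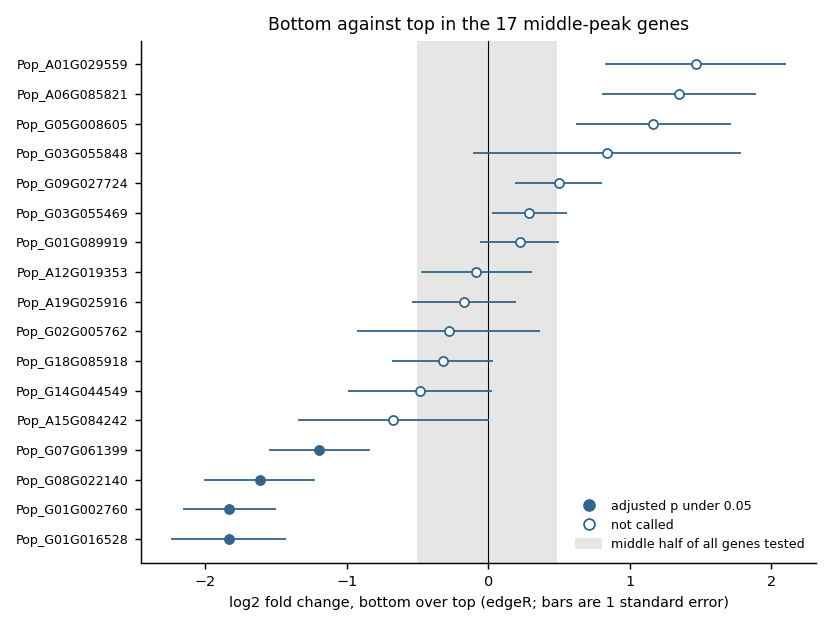
Fitted log2 fold change of bottom over top for each of the 17 genes, with bars of 1 standard error (edgeR, 9 libraries). Filled points are the 4 genes with an adjusted p under 0.05, all lower in the bottom, and the grey band from -0.50 to 0.48 holds the middle part of all 52436 genes tested between their quartiles.

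By the rule the middle was highest, so the 17 genes are sorted here only by overlap of their single top and bottom libraries. The bottom libraries lay below the top libraries in the 4 called genes and in Pop_G14G044549, which had 1.21, 1.32 and 1.11 FPKM in the bottom and 1.52, 1.97 and 1.36 FPKM in the top and was not called (edgeR adjusted p = 0.505). They lay above in Pop_A01G029559 and Pop_A06G085821, also not called. Top and bottom libraries overlapped in the other 10 genes. Over all genes tested, every bottom library lay below every top library in 22.0% and above in 24.9%.

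Besides levels, 2 properties could be read from the files, gene length and class of identifier. Length enters FPKM, on which the rule acted. The gene length implied by counts and FPKM had a median of 964 bases over the 17 genes, with a range of 259 to 4129 bases, against 1530 bases over the 37084 genes, and 13 of the 17 were shorter than that median. The shortest was Pop_G02G005762 and the longest Pop_G03G055469. At equal FPKM a shorter gene has fewer reads, and the part of this in the choice of members was not tested. By class of identifier, 12 of the 17 genes were of class G, 5 of class A and 0 of class Un, against 48.8%, 49.7% and 1.54% of the 37084 genes. These counts are given without a test.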

How the data were processed

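Poly(A) RNA of 9 stem pieces was sequenced as read pairs, per the labels' protocols. The submitters' processing notes name Trimmomatic 0.36 and HISAT2. How reads were counted, on which genome build and annotation and with which strand setting is not given in the sources used here. As deposited by the authors, the data were 1 table of whole-number counts and 1 of FPKM for 85755 identifiers, and sample titles give the code of each column. All 503602 counts above 0 were even. The gene length implied by counts and FPKM differed between libraries by at most 0.169% over 40077 genes with at least 200 counts in 2 or more libraries.

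The rule was applied to the deposited FPKM values. Bottom against top was tested on the deposited counts with edgeR 4.0.16 in R 4.3.3: filterByExpr (minimum count 10, minimum total 15), TMM scaling and 1 quasi-likelihood model of the 3 positions over 9 libraries. Adjusted p-values cover all 52436 genes tested, and standard errors were derived from the F statistics. Ratios of 2 libraries have exact 95% binomial (Clopper-Pearson) intervals. Total counts were 41434042 to 75217046 per library.

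The members, lists and tests were chosen with earlier results of these data known. The naming rule took the 2 genes with the largest margin of the lowest middle library over the top, the 2 over the bottom, and up to 2 called rises and 2 called falls in bottom against top without overlap. It gave 5 genes, and the other 12 were named after their values were seen. Alternatives were DESeq2 1.42.0, limma 3.58.1 on log2(FPKM + 1) or log2(FPKM + 0.1), other scalings and filters, a replicate block, halved counts, fewer libraries and other thresholds of the rule.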

Additional observations from a re-analysis of the deposited data

How the results depend on the processing

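The number of genes that met the rule was 9 with a floor of 5 FPKM, 56 with a fold midway between 1 and 1.5, 2 with a fold of 2 and 1247 on position means. With 1 library left out it ranged from 19 to 110, and leaving replicate number 1, 2 or 3 out of every position gave 144, 65 and 186. All 17 genes were kept under both rescalings of FPKM, where middle library 2 was the highest in 12 of them. In bottom against top, 1 gene of the 17, Pop_A06G085821, was called higher in DESeq2, in limma on log2(FPKM + 1) and in limma on log2(FPKM + 0.1). In these fits 13.6%, 14.1% and 14.8% of all genes were called higher. Without replicate number 2 the 1 gene called higher was Pop_G03G055469, against 4.61% of all genes. With 1 library left out 0 to 1 genes were called higher, against 6.71% to 13.5% of all genes. Genes called lower numbered 2 to 4 with 1 library left out, where 8.3% to 15.5% of all genes were called lower. They numbered 2, 1 and 0 without replicate number 1, 2 or 3, where 10.2%, 6.2% and 2.96% of all genes were called lower. The median log2 fold change of the 17 genes was -0.035 in limma on log2(FPKM + 1), with or without a filter, -0.033 in limma on log2(FPKM + 0.1), -0.35 to 0.0030 with 1 library left out and 0.15 without replicate number 3, so its direction changed with the libraries used. The cause was not tested.

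Signs turned in 6 genes, none of them called in the full fit, and only with libraries left out. With 1 library left out, log2 fold changes ran from -0.31 to 0.10 in Pop_A12G019353, -0.45 to 0.22 in Pop_A19G025916, -0.035 to 0.53 in Pop_G01G089919, -0.53 to 0.0058 in Pop_G02G005762 and -0.57 to 0.0030 in Pop_G18G085918. Without 1 replicate number in all positions they reached 0.25 in Pop_A12G019353, 0.24 in Pop_A19G025916, -0.11 in Pop_G01G089919, 0.21 in Pop_G02G005762 and -0.028 in Pop_G03G055469. Same-numbered bottom and top libraries had correlations of deviations of -0.03, -0.16 and 0.13, so replicate numbers were not taken to pair them. For middle and top libraries these were 0.27, 0.12 and 0.11, and for bottom and middle libraries 0.055, -0.0002 and 0.036. Different-numbered libraries ran from -0.15 to 0.16 for bottom and top and from -0.056 to 0.017 for bottom and middle. For middle and top they ran from -0.19 to 0.038, below every same-numbered value. Deviations were taken from the position mean, so a higher correlation with 1 library of a position lowers those with its other libraries. Same-numbered and different-numbered values are thus not independent. Whether equal numbers share a plant is not labelled. With the replicate block, 0 of the 17 genes were called higher and 4 lower, as without it, and the median was -0.11. In that fit 11.5% of all genes were called higher and 14.1% lower. DESeq2 gave no adjusted p for Pop_G03G055848.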
